A study of Bos taurus with 8 samples.

Results

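The genes described here are 9 members of the chemokine and cytokine system of a bovine uterine epithelial cell line: the atypical chemokine receptors ACKR3 and ACKR4, the chemokines CCL2, CXCL8, CXCL10, CXCL12 and CXCL16, and the cytokines IL6 and LIF. They are 9 of 28709 genes in the deposited table, found there by symbol. ACKR4 was chosen by its measured difference between progesterone and DMSO, so its values are given as a description and carry no test. The other 8 belong to the same signalling system, and they were listed with earlier results of these data known.

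RNA was measured in BUTE cells, an immortalized line made from the uterine epithelium of a Holstein dairy cow and recorded as wild type. The treated group received 10 µM progesterone for 24 h (4 libraries) and the control group the vehicle DMSO for 24 h (4 libraries). Both groups had first spent 24 h without serum and steroids in medium with insulin-like growth factor 1, and both had 50 ng/ml of that growth factor during the treatment. Library names follow the column headings (progesterone R1, R2, R3 and R6, DMSO R1, R3, R7 and R9). Separate cultures are not stated for the 4 libraries within a group, so a p-value reflects the spread among these libraries alone, which may be technical.

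Chemokines are small secreted proteins that direct the movement of leukocytes and other cells through G-protein-coupled receptors. Atypical receptors bind chemokines without G-protein signalling and carry them into the cell, which lowers the amount outside and shapes gradients. In the uterus, epithelial cells release chemokines and cytokines of the IL6 family that call in neutrophils and monocytes after calving or infection and that act at the time of embryo attachment.

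The libraries held between 23810861 and 32509786 estimated counts. DMSO R7 and R9 stood apart from the other 6 libraries on the first principal component, which carried 62.2% of the variance, at 59.2 and 63.2 against -26.1 to -12.6. Differences are therefore given with all 8 libraries and again without these 2. In counts scaled to library size (CPM), the epithelial marker KRT8 averaged 1739.5 CPM with progesterone and 2481 CPM with DMSO, and CDH1 averaged 16.3 CPM with progesterone and 12.7 CPM with DMSO. EPCAM averaged 0.433 CPM with progesterone and 1.41 CPM with DMSO, and CLDN3, CLDN4, CLDN7 and GRHL2 were below the count filter. All 9 listed markers of stromal fibroblasts were above the count filter in the same cells. Among them, VIM was at 6832 CPM with progesterone and 6360.3 CPM with DMSO, and COL1A1 at 1698 CPM with progesterone and 3956 CPM with DMSO. The median log2 fold change of the 9 fibroblast markers was -0.45, and -0.21 without DMSO R7 and R9. The leukocyte markers PTPRC and MS4A1 were at 0 in every library, and the 12 leukocyte markers together lay between 3.78 and 6.52 CPM with progesterone and between 5.98 and 6.32 CPM with DMSO. In bulk RNA, fewer cells that express a gene and less of its RNA per cell cannot be told apart.

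Of the 9 genes, 7 passed a filter on low counts and entered the fit across 13557 genes. IL6 and CXCL10 lay below it. CXCL12 passed it through its DMSO libraries alone, so its values are given as a description, though it is counted among the tested genes. Leaving out ACKR4, 1 of 6 tested genes passed the edgeR quasi-likelihood test at a threshold of 0.05 (p adjusted over all genes by the Benjamini-Hochberg method), against 2.65% of all genes tested. That gene was CXCL16, which rose. Over all genes, 1.69% passed and were higher and 0.959% passed and were lower with progesterone. Without DMSO R7 and R9 the count was again 1 of 6, CXCL16, against 1.18% of 13764 genes. DESeq2 called ACKR3 and CXCL16, in a fit that called 13.5% of all genes, and limma voom called CXCL16 and 2.04% of all genes. The fit without DMSO R1 called 13% of all genes, so a gene below that passed in DESeq2 or without DMSO R1 stands against these shares and not against 2.65%. CXCL16 was among the 16.2% of all genes tested whose values did not overlap between the groups. ACKR4, chosen for its difference, and CXCL12 did not overlap either, and nothing is read from that.

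**Figure D1:**
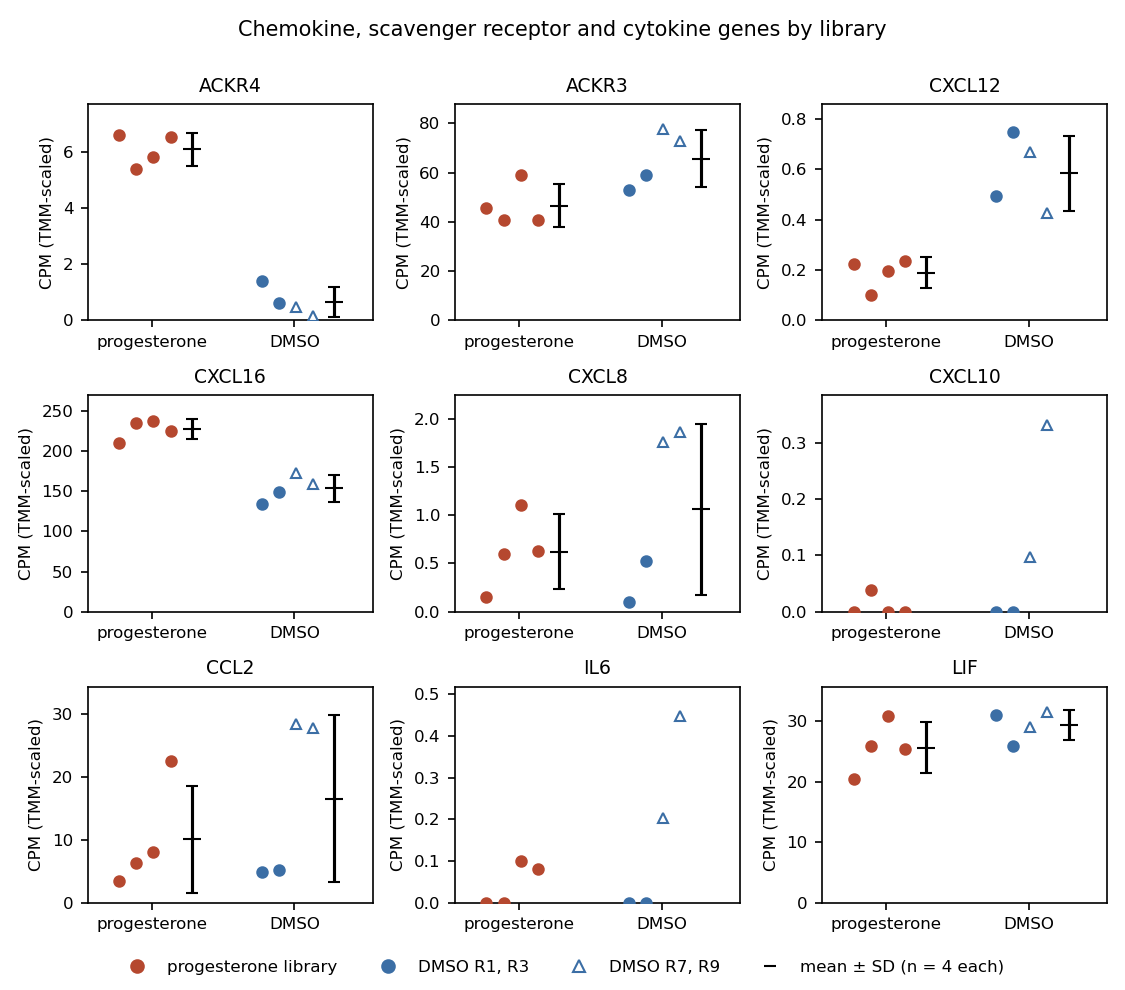
TMM-scaled CPM (vertical axis, from 0, a different range in each panel) of the 9 genes in 4 progesterone libraries (red) and 4 DMSO libraries (blue), with open triangles for DMSO R7 and R9 and bars for mean ± SD over 4 libraries, drawn for the 7 genes above the count filter. ACKR4 and CXCL16 lie higher and CXCL12 lower in every progesterone library than in any DMSO library, and CCL2, CXCL8, CXCL10 and IL6 are highest in DMSO R7 and R9.

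ACKR4 (Entrez Gene 281672, chromosome 1) encodes a scavenger that, in human and mouse, takes up CCL19, CCL21 and CCL25. Its level in CPM was 6.62, 5.39, 5.84 and 6.52 in progesterone R1, R2, R3 and R6, and 1.41, 0.620, 0.477 and 0.167 in DMSO R1, R3, R7 and R9. These values rest on 216, 136, 166 and 158 estimated counts with progesterone and 41.4, 16.9, 14.1 and 4.42 with DMSO. The lowest progesterone library lay 3.81-fold above the highest DMSO library. The progesterone libraries were close to each other and the DMSO libraries were not: the SD of log2 CPM within the group was 0.14 with progesterone and 1.12 with DMSO. The fitted difference was 9.08-fold with all libraries (log2 fold change 3.18) and 6.01-fold without DMSO R7 and R9 (2.59). It was 3.85 on the log2 scale without DMSO R1, the highest of the DMSO libraries.

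In the reference order of genes (assembly ARS-UCD2.0), ACKR4 overlaps ACAD11, an acyl-CoA dehydrogenase gene. The labels and notes do not state how reads were assigned between overlapping genes. ACAD11 averaged 20.0 ± 1.88 CPM with progesterone and 20.0 ± 3.41 CPM with DMSO (SD, n = 4 each), a log2 fold change of 0.0026 ± 0.14 (SE). Its value without DMSO R7 and R9 was 0.24 (edgeR adjusted p = 0.406). On the other side of ACKR4, DNAJC13 had a log2 fold change of -0.33 (edgeR adjusted p = 0.102), and -0.11 without DMSO R7 and R9. Neighbours up to 2 genes away on each side were looked up for all 9 genes. Those of ACKR4 here and of CXCL16 below were named after their values were seen. Of all neighbours tested, only ZMYND15, beside CXCL16, passed in edgeR.

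Of the chemokines that ACKR4 takes up, only CCL25 passed the filter. It lay between 7.86 and 15.0 CPM with progesterone and between 9.87 and 13.5 CPM with DMSO, ranges that overlap (log2 fold change -0.18, SE 0.20; adjusted p = 0.575 in edgeR; -0.066 without DMSO R7 and R9). CCL19 had 0 counts in the progesterone libraries and at most 1.01 in a DMSO library, and CCL21 had 0 counts in all 8. A count of 0 allows up to 3 counts, which is 0.0917 to 0.124 CPM in these libraries. CCR7, the signalling receptor of CCL19 and CCL21, was at 0.491 ± 0.308 CPM with progesterone and 0.810 ± 0.339 CPM with DMSO (SD, n = 4 each) and did not pass (log2 fold change -0.70, edgeR adjusted p = 0.391; -0.56 without DMSO R7 and R9). The ligands and receptors paired with the 9 genes here were chosen for their role, whatever their values.

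ACKR3 (509585, chromosome 3) encodes the atypical receptor of CXCL12 and CXCL11, which signals through beta-arrestin. It was at 45.8, 40.6, 59.2 and 40.9 CPM in progesterone R1, R2, R3 and R6, and at 52.9, 59.0, 77.8 and 72.7 CPM in DMSO R1, R3, R7 and R9. Progesterone R3 lay among the DMSO values, and DMSO R7 and R9 were the highest libraries. The log2 fold change was -0.49 ± 0.16 SE (95% interval -0.84 to -0.15) and did not pass in edgeR (adjusted p = 0.0928). DESeq2 called it (adjusted p = 0.0340), as did edgeR without DMSO R1 (-0.58, adjusted p = 0.0373), the settings that also called 13.5% and 13% of all genes. The log2 fold change without DMSO R7 and R9 was -0.25 (interval -0.57 to 0.071, edgeR adjusted p = 0.441).

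CXCL12 (613811, chromosome 28) encodes the ligand of ACKR3 that also signals through CXCR4. It was at 0.223, 0.103, 0.195 and 0.237 CPM in progesterone R1, R2, R3 and R6, and at 0.493, 0.747, 0.669 and 0.426 CPM in DMSO R1, R3, R7 and R9. These are between 2.59 and 7.29 estimated counts with progesterone and between 11.3 and 20.4 with DMSO, so counting error is large. Every DMSO library was above every progesterone library, the lowest by 1.80-fold over the highest. CXCL12 passed the filter through its DMSO libraries, 4 of which reached the cutoff against 0 with progesterone. A gene that enters the tested set in this way had to differ in this direction. As a description, its log2 fold change was -1.52 with all libraries and -1.57 without DMSO R7 and R9.

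Summed markers of stromal fibroblasts, cells that also make CXCL12, lay between 12083 and 13277 CPM with progesterone and between 13286 and 20569 CPM with DMSO, with the highest sums in DMSO R7 (20569) and R9 (19039). All 9 markers were tested and none passed in edgeR, with 4 at an unadjusted p under 0.05 and calls for 3 in DESeq2 and 0 in voom. Of 8 tested epithelial markers none passed in edgeR, with 3 at an unadjusted p under 0.05 and calls for 3 in DESeq2 and 0 in voom. Summed epithelial markers lay between 1759.6 and 2682 CPM with progesterone and between 2843 and 3097 CPM with DMSO. Such a sum follows its most abundant markers. The median log2 fold change of the 8 tested epithelial markers was -0.04, and -0.32 without DMSO R7 and R9. The part of these differences in marker sums in the values of CXCL12 and ACKR3 was not tested.

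CXCR4, the signalling receptor of CXCL12, was at 1.046 ± 0.211 CPM with progesterone and 2.59 ± 1.43 CPM with DMSO (SD, n = 4 each). Its groups did not overlap, and it did not pass (log2 fold change -1.32, SE 0.40; adjusted p = 0.0846 in edgeR). Its log2 fold change was -0.47 without DMSO R7 and R9 and -1.53 without DMSO R1, where it passed (edgeR adjusted p = 0.0316). DESeq2 also called it with all libraries (adjusted p = 0.0259). CXCL11, the other ligand of ACKR3, had 0 counts with progesterone and at most 5.01 in a DMSO library.

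CXCL16 (511671, chromosome 19) encodes a membrane-bound chemokine that can be shed by the proteases ADAM10 and ADAM17 and that also binds oxidized lipoproteins. It was at 210.6, 235.5, 237.9 and 225 CPM in progesterone R1, R2, R3 and R6, and at 134, 149, 173 and 159 CPM in DMSO R1, R3, R7 and R9. All progesterone libraries were above all DMSO libraries, the lowest by 1.22-fold over the highest. The mean was 227 ± 12.4 CPM with progesterone and 154 ± 16.4 CPM with DMSO (SD, n = 4 each). CXCL16 rose 1.48-fold (log2 fold change 0.56, SE 0.09; adjusted p = 0.0213 in edgeR). It rose 1.62-fold without DMSO R7 and R9 (0.70 ± 0.09 SE, edgeR adjusted p = 0.00807). With 3 progesterone libraries the call was lost while the log2 fold change stayed between 0.54 and 0.60: the edgeR adjusted p was 0.0557 without progesterone R1, 0.0695 without R2, 0.0678 without R3 and 0.0676 without R6.

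The next gene on 1 side of CXCL16 in the reference order was ZMYND15, a zinc-finger gene known from male germ cells in mouse. It averaged 47.5 ± 2.26 CPM with progesterone and 24.7 ± 6.07 CPM with DMSO (SD, n = 4 each) and rose 1.92-fold (log2 fold change 0.94, SE 0.16; adjusted p = 0.0207 in edgeR). Leaving out DMSO R7 and R9, its log2 fold change was 0.68 (edgeR adjusted p = 0.00877). The call was lost without any of the progesterone libraries R1, R2, R3 and R6 and without DMSO R7, with edgeR adjusted p up to 0.0729. On the other side, MED11 was at 13.0 ± 2.82 CPM with progesterone and 11.1 ± 1.25 CPM with DMSO and did not pass (log2 fold change 0.23, edgeR adjusted p = 0.387, and 0.12 without DMSO R7 and R9).

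CXCR6, the receptor of CXCL16, had 0 counts in all 8 libraries. ADAM10 averaged 167 ± 11.1 CPM with progesterone and 229 ± 60.0 CPM with DMSO (SD, n = 4 each) and did not pass (edgeR adjusted p = 0.122). ADAM10 had a fitted log2 difference of -0.46 with all libraries and -0.076 without DMSO R7 and R9. Leaving out DMSO R1, it passed (edgeR adjusted p = 0.0456). The other protease, ADAM17, averaged 187 ± 8.09 CPM with progesterone and 172 ± 11.5 CPM with DMSO and did not pass (edgeR adjusted p = 0.369). Its log2 fold change was 0.11 with all libraries and 0.058 without DMSO R7 and R9.

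**Figure D2:**
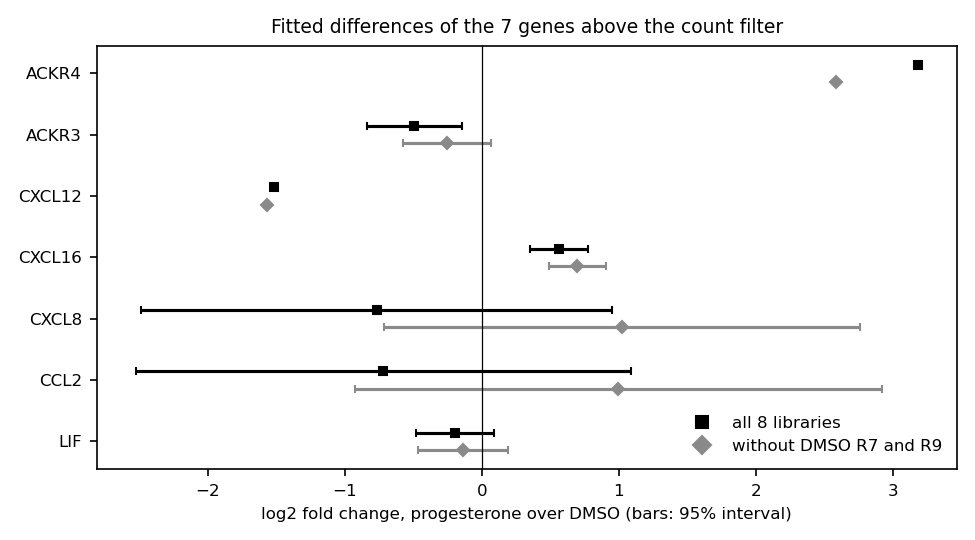
Log2 fold change of progesterone over DMSO (horizontal axis) for the 7 genes above the count filter, with all 8 libraries (black squares) and without DMSO R7 and R9 (grey diamonds); bars are 95% intervals, left out for ACKR4, which was chosen for its difference, and for CXCL12, which passed the filter through DMSO libraries alone. CXCL16 keeps an interval above 0 in both fits, and CCL2 and CXCL8 change sign between them.

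CCL2 (281043, chromosome 19) encodes the chemokine that attracts monocytes through CCR2. It was at 3.43, 6.37, 8.10 and 22.5 CPM in progesterone R1, R2, R3 and R6, and at 4.97, 5.16, 28.4 and 27.7 CPM in DMSO R1, R3, R7 and R9. DMSO R7 and R9 were 5.53-fold above DMSO R1 and R3 in their means, and progesterone R6 was closest to them. The spread within groups was larger than for 99.1% of the genes tested, and the groups overlapped. The log2 fold change was -0.72 ± 0.78 SE with all libraries (95% interval -2.52 to 1.09, edgeR adjusted p = 0.582) and 1.00 ± 0.78 SE without DMSO R7 and R9 (-0.93 to 2.92, edgeR adjusted p = 0.597). No direction can be given for CCL2. CCR2 had 0 counts in all 8 libraries.

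CXCL8 (280828, chromosome 6), which encodes the main attractant of neutrophils, was likewise highest in DMSO R7 and R9. It was at 0.150, 0.595, 1.11 and 0.633 CPM in progesterone R1, R2, R3 and R6, and at 0.101, 0.520, 1.76 and 1.86 CPM in DMSO R1, R3, R7 and R9. DMSO R1 was the lowest of the 8 libraries, and the groups overlapped, with 51.8 and 49.2 estimated counts in DMSO R7 and R9 against 2.97 in DMSO R1. The log2 fold change was -0.77 ± 0.77 SE with all libraries (95% interval -2.48 to 0.95, edgeR adjusted p = 0.541) and 1.02 ± 0.78 SE without DMSO R7 and R9 (-0.72 to 2.76, edgeR adjusted p = 0.569). Of the receptors of CXCL8, CXCR1 had 0 counts in all libraries and CXCR2 at most 2.61 with progesterone and 2.63 with DMSO.

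CXCL10 (615107, chromosome 6), an interferon-induced attractant of lymphocytes, was barely detected. It had 0, 0.953, 0 and 0 estimated counts in progesterone R1, R2, R3 and R6, and 0, 0, 2.88 and 8.79 in DMSO R1, R3, R7 and R9. DMSO R9 alone exceeded the limit of 3 counts that a count of 0 allows. No fold change is given for it. Its receptor CXCR3 had 0 counts in all libraries.

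IL6 (280826, chromosome 4), the cytokine of acute inflammation, had 0, 0, 2.86 and 1.95 estimated counts in progesterone R1, R2, R3 and R6, and 0, 0, 5.97 and 11.8 in DMSO R1, R3, R7 and R9. Its counts in DMSO R7 and R9 were the only ones above 3. IL6 was below the filter and was not tested.

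The counts of CXCL10 and IL6 thus came mostly from the same libraries, DMSO R7 and R9, in which CCL2 and CXCL8 were highest. IL6R, which encodes the binding receptor of IL6, was at 0.813 ± 0.119 CPM with progesterone and 1.95 ± 1.31 CPM with DMSO (SD, n = 4 each), and its log2 fold change was -1.27 with all libraries (adjusted p = 0.129 in edgeR) and -0.13 without DMSO R7 and R9. Without DMSO R1 it passed (-1.55, edgeR adjusted p = 0.0351).

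LIF (280840, chromosome 17) encodes the IL6-family cytokine that mice need for embryo implantation. It was at 20.5, 25.8, 30.9 and 25.3 CPM in progesterone R1, R2, R3 and R6, and at 31.0, 25.9, 29.1 and 31.5 CPM in DMSO R1, R3, R7 and R9. The groups overlapped, and DMSO R7 and R9 did not stand apart. The log2 fold change was -0.20 ± 0.13 SE (95% interval -0.48 to 0.089, edgeR adjusted p = 0.344), and -0.14 without DMSO R7 and R9. With all libraries, a fall of more than 0.48 and a rise of more than 0.089 on the log2 scale lay outside the interval. Without DMSO R7 and R9 the 95% interval ran from -0.47 to 0.19, so a rise of more than 0.089 lay within it. Both intervals cover only the spread among these libraries.

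LIFR, which encodes the receptor of LIF, averaged 0.554 ± 0.297 CPM with progesterone and 2.21 ± 1.72 CPM with DMSO (SD, n = 4 each). Its log2 fold change was -1.997 ± 0.65 SE (edgeR adjusted p = 0.0979) and -0.38 without DMSO R7 and R9. LIFR passed without DMSO R1 (edgeR adjusted p = 0.0370) and in DESeq2 (adjusted p = 0.0234). IL6ST, the signalling subunit that LIF and IL6 share, lay between 327 and 437 CPM with progesterone and between 395 and 502 CPM with DMSO (log2 fold change -0.19, SE 0.11; adjusted p = 0.305 in edgeR; -0.19 without DMSO R7 and R9).

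The 7 tested genes differed in how closely their libraries agreed. The pooled SD of log2 CPM within groups was 0.12 for CXCL16 and 0.19 for LIF, under the median of 0.20 over all genes tested. It was 0.26 for ACKR3, 0.34 for CXCL12, 0.80 for ACKR4, 1.28 for CCL2 and 1.36 for CXCL8. The values of CCL2 and CXCL8 exceeded those of 99.1% and 99.3% of genes.

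For each of the 7 genes, the profiles most like its own were found among 11529 genes of at least 1 CPM, as the smallest root mean square difference of centred log2 CPM over 8 libraries. These are descriptions, and since the libraries share the treatment and the split within DMSO, many genes can lie near each profile. The nearest to ACKR4 was ABCA1, the cholesterol exporter, at a difference of 0.38, where the root mean square of ACKR4 around its own mean was 1.82. WNT4, a signalling ligand, followed at 0.53. The nearest to CXCL12 were the circadian clock repressors CRY1 (0.33) and CIART (0.34), against 0.69 for CXCL12 itself. Their log2 fold changes were -1.15 for CRY1 and -1.50 for CIART, and -1.26 and -1.35 without DMSO R7 and R9. Those of ABCA1 and WNT4 were 2.87 and 2.63, and 2.43 and 1.85 without DMSO R7 and R9. ACKR4 was chosen for its difference, so genes picked for a profile like its own had to differ in the same direction. CXCL12 had at most 7.29 estimated counts with progesterone and passed the filter through its DMSO libraries alone, so its profile had to be lower with progesterone. A link between CXCL12 and the clock genes was not tested.

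The nearest to CCL2 were FGF7, a growth factor, at 0.35 and the hyaluronan synthase HAS2 at 0.38, against 1.14 for CCL2. For CXCL8 they were CASQ1 (0.42) and DEFB7, a beta-defensin (0.43), against 1.196. For CXCL16 they were MCRIP2 (0.092) and the activin receptor ACVR1B (0.099), against 0.30, for ACKR3 CHST11 (0.087) and RMDN3 (0.093), against 0.33, and for LIF CD207 (0.060) and NME3 (0.099), against 0.20.

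**Figure D3:**
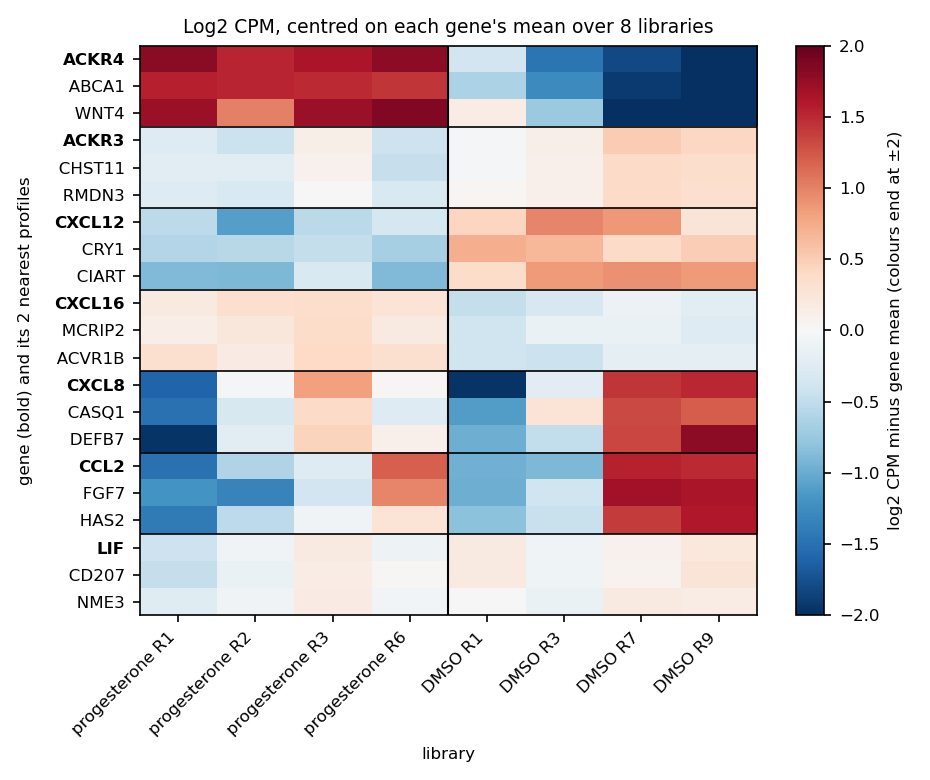
Log2 CPM of 7 genes (bold) and the 2 genes of nearest profile to each (rows), minus each gene's mean over 8 libraries, in 4 progesterone and 4 DMSO libraries (columns); red is above and blue below the gene's mean, and colours end at ±2. ACKR4, CXCL12 and CXCL16 change colour at the line between the groups, while CCL2 and CXCL8 are reddest in DMSO R7 and R9 and mixed elsewhere.

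Around these genes, 10 lists of chemokines, cytokines, their receptors and the machinery that controls them held 135 genes above the filter. Of these, 6 passed in edgeR, 5 higher and 1 lower, which is 4.44% against 2.65% over all genes. The lists were chosen with earlier results of these data known, so these shares are a description and nothing is read from their difference. The median log2 fold change of the 135 genes was 0.06, against -0.01 over all genes. Without DMSO R7 and R9, 4 of the 135 passed, against 1.18% over all genes in that fit.

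Of 35 other chemokine ligands listed, 9 were tested and 23 were below the filter, 13 of them at 0 in every library. None of the 9 passed in edgeR, DESeq2 or voom, and 2 had an unadjusted p under 0.05. These were CXCL3, which draws neutrophils and whose reads may be shared with its near relatives, at 4.63 ± 2.23 CPM with progesterone and 2.52 ± 0.346 CPM with DMSO (log2 fold change 0.88, edgeR adjusted p = 0.122, and 1.06 without DMSO R7 and R9), and CXCL9, an interferon-induced chemokine, at 0.346 ± 0.198 CPM with progesterone and 1.14 ± 0.908 CPM with DMSO (SD, n = 4 each, edgeR adjusted p = 0.166). CXCL9 was highest in DMSO R7 and R9, at 2.22 and 1.49 CPM, and its log2 fold change was -1.70 with all libraries and -0.21 without them. Without DMSO R1 it passed (edgeR adjusted p = 0.0396). The list's median log2 fold change was -0.0040 with all libraries and 0.69 without DMSO R7 and R9. Of 21 other chemokine receptors, 3 were tested and none passed in edgeR (unadjusted p under 0.05 for 1; calls by DESeq2 1, by voom 0), with a median of -0.70, and -0.47 without DMSO R7 and R9.

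Of 13 tested genes of chemokine processing and receptor trafficking, 1 rose and 12 did not pass (median log2 fold change 0.06, and 0.02 without DMSO R7 and R9), while DESeq2, at 13.5% of all genes, called 2. ARRB1, a beta-arrestin that helps carry activated receptors into the cell, was at 44.0 ± 5.44 CPM with progesterone and 23.0 ± 5.19 CPM with DMSO (SD, n = 4 each). It rose 1.91-fold (log2 fold change 0.93, SE 0.16, adjusted p = 0.0228 in edgeR), and a part of ARRB1 in the uptake by ACKR4 or ACKR3 was not tested. Without DMSO R7 and R9 together it was 0.74 and passed (edgeR adjusted p = 0.0481). It did not pass without progesterone R1, R2 or R6, or without DMSO R7 or R9 alone, with edgeR adjusted p between 0.0512 and 0.0809. The beta-arrestin gene ARRB2 was at 43.5 ± 2.19 CPM with progesterone and 39.4 ± 4.84 CPM with DMSO and did not pass (edgeR adjusted p = 0.387). Its log2 fold change was 0.14, and 0.018 without DMSO R7 and R9. SDC4, a heparan sulfate proteoglycan that holds chemokines at the cell surface, was at 221 ± 37.1 CPM with progesterone and 155 ± 21.7 CPM with DMSO and did not pass (log2 fold change 0.51, edgeR adjusted p = 0.0704). Without DMSO R7 and R9 it was 0.36 (edgeR adjusted p = 0.236), and it passed without DMSO R1 (0.0418), without DMSO R3 (0.0445) and in DESeq2 (0.00995).

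Of 23 tested genes of the IL6 family and its JAK-STAT pathway, 1 rose and 22 did not pass (median 0.10, and 0.06 without DMSO R7 and R9). DESeq2, at 13.5% of all genes, called 5 of the 23, STAT3 and SOCS2 among them. CTF1, an IL6-family cytokine known from heart muscle, was at 6.47 ± 0.188 CPM with progesterone and 3.44 ± 0.882 CPM with DMSO (SD, n = 4 each) and rose 1.88-fold (log2 fold change 0.91, SE 0.21; adjusted p = 0.0489 in edgeR). Without DMSO R7 and R9 it was 0.68 and did not pass (edgeR adjusted p = 0.0904), nor did it without any of the progesterone libraries R1, R2, R3 and R6 or without DMSO R7 or R9 alone, with edgeR adjusted p up to 0.138. The call was also lost with scaling by library size only (edgeR adjusted p = 0.0568) and with a model term for DMSO R7 and R9 (0.0978). STAT3, the transcription factor that IL6 and LIF activate, was at 188 ± 12.7 CPM with progesterone and 148 ± 9.68 CPM with DMSO, without overlap (log2 fold change 0.35, edgeR adjusted p = 0.0556). It was 0.32 without DMSO R7 and R9 (edgeR adjusted p = 0.1203) and passed without DMSO R1 (0.0368). SOCS2, a feedback inhibitor, was at 1.71 ± 0.366 CPM with progesterone and 3.36 ± 1.16 CPM with DMSO (log2 fold change -0.98, edgeR adjusted p = 0.0831). It was -0.46 without DMSO R7 and R9 (edgeR adjusted p = 0.443) and passed without DMSO R1 (0.0394).

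Of 17 other interleukin receptors tested, 1 fell and 16 did not pass (median 0.09, and 0.14 without DMSO R7 and R9). IL7R (521554, chromosome 20), which encodes the receptor chain of IL7 and TSLP, lay at 6.65, 9.75, 8.10 and 8.18 CPM in progesterone R1, R2, R3 and R6, and at 15.0, 24.2, 25.8 and 28.3 CPM in DMSO R1, R3, R7 and R9. The groups did not overlap. IL7R fell 2.85-fold (log2 fold change -1.51, SE 0.20; adjusted p = 0.00922 in edgeR) and had -1.25 without DMSO R7 and R9 (edgeR adjusted p = 0.0180). It passed in all 17 alternatives tried, with edgeR adjusted p up to 0.0414 when a library was left out. Of 11 other interleukins and colony-stimulating factors, none passed in edgeR, DESeq2 or voom, and 0 had an unadjusted p under 0.05 (median 0.33, and 0.10 without DMSO R7 and R9). Among them IL1RN, the antagonist of the IL1 receptor, was at 9.69 and 11.02 CPM in DMSO R7 and R9, against 1.33 to 2.98 CPM with progesterone and 1.395 and 1.24 CPM in DMSO R1 and R3, and its log2 fold change was -1.61 with all libraries and 0.53 without DMSO R7 and R9.

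Of 14 genes of cytokine mRNA decay and p38 control, 2 rose and 12 did not pass (median 0.13, and 0.10 without DMSO R7 and R9). Over all genes, 1.69% passed and were higher, and nothing is read from the difference. ZFP36, tristetraprolin, which binds AU-rich elements in mRNAs such as those of IL6 and CXCL8 and speeds their decay, was at 23.6, 22.9, 27.7 and 24.5 CPM in progesterone R1, R2, R3 and R6, and at 13.6, 15.2, 12.9 and 11.3 CPM in DMSO R1, R3, R7 and R9. Every progesterone library was above every DMSO library. ZFP36 rose 1.86-fold (log2 fold change 0.89, SE 0.12; adjusted p = 0.00922 in edgeR) and 1.73-fold without DMSO R7 and R9 (edgeR adjusted p = 0.0139). It passed in all 17 alternatives, with edgeR adjusted p up to 0.0405 when a library was left out. Its relative ZFP36L2 was at 252 ± 9.47 CPM with progesterone and 162 ± 32.8 CPM with DMSO (SD, n = 4 each) and rose 1.55-fold (log2 fold change 0.63, SE 0.14; adjusted p = 0.0445 in edgeR, and 0.0446 without DMSO R7 and R9). It did not pass without any of the progesterone libraries R1, R2, R3 and R6 or without DMSO R7 or R9 alone, with edgeR adjusted p up to 0.118, nor with a model term for DMSO R7 and R9 (0.0778) or scaling by library size only (0.0560).

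Of 30 genes of the NF-kappaB pathway, which drives transcription of CCL2, CXCL8 and IL6, 1 rose and 29 did not pass (median log2 fold change -0.01, and 0.02 without DMSO R7 and R9). DESeq2, at 13.5% of all genes, called 4 of the 30, RELB and NFKBIA among them. BCL3, a nuclear partner of the pathway's DNA-binding subunits, was at 88.2 ± 13.8 CPM with progesterone and 55.8 ± 6.91 CPM with DMSO (SD, n = 4 each) and rose 1.58-fold (log2 fold change 0.66, SE 0.13; adjusted p = 0.0331 in edgeR). It did not pass without DMSO R7 and R9 together (0.60, edgeR adjusted p = 0.0614), with a model term for them (0.0617), without any of the progesterone libraries R1, R2, R3 and R6, or without DMSO R7 or R9 alone, with edgeR adjusted p up to 0.104. RELB, a subunit, was at 58.9 ± 5.85 CPM with progesterone and 43.4 ± 4.28 CPM with DMSO (log2 fold change 0.44, edgeR adjusted p = 0.0527). It was 0.44 also without DMSO R7 and R9 (edgeR adjusted p = 0.0818) and passed without DMSO R1 (0.0321) and without a filter on low counts (0.0444). NFKBIA, the inhibitor that the pathway induces, was at 23.9 ± 1.97 CPM with progesterone and 16.9 ± 4.18 CPM with DMSO (log2 fold change 0.50, edgeR adjusted p = 0.101). It was 0.26 without DMSO R7 and R9 (edgeR adjusted p = 0.355) and passed without DMSO R1 (0.0239). Of 7 tested genes listed under Toll-like receptors none passed in edgeR (unadjusted p under 0.05 for 1), with a median of 0.14, and 0.18 without DMSO R7 and R9. DESeq2, at 13.5% of all genes, called 1 of these 7 and voom called 0. LY96, which is not itself a Toll-like receptor, had a log2 fold change of 0.73 (edgeR adjusted p = 0.0718). It was 0.49 without DMSO R7 and R9 (edgeR adjusted p = 0.254), and DESeq2 called LY96 (adjusted p = 0.00902). Of 8 interferon regulatory factors none passed in edgeR, DESeq2 or voom and 0 had an unadjusted p under 0.05, with a median of -0.15, and 0.01 without DMSO R7 and R9.

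**Figure D4:**
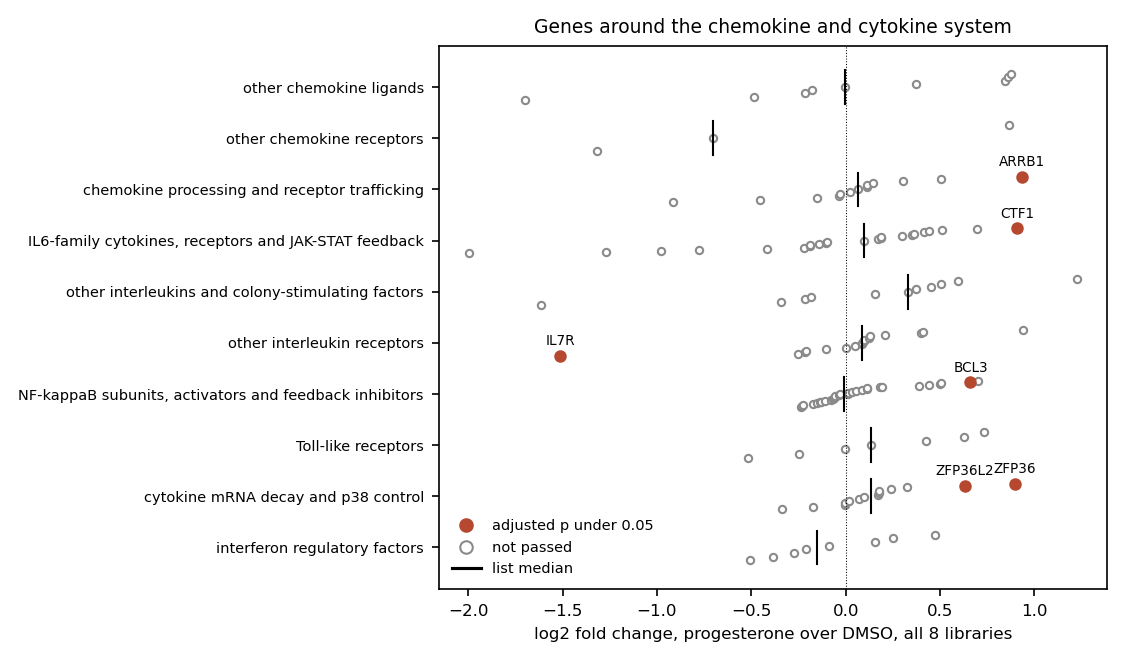
Log2 fold change of progesterone over DMSO (horizontal axis) of the tested genes of 10 lists (rows), with filled red points and names for the 6 genes past an adjusted p of 0.05 (edgeR, all 8 libraries), open grey points for the others and a black bar for the median of each list. The medians lie between -0.15 and 0.14, except those of other chemokine receptors (-0.70) and of other interleukins (0.33), and the filled points belong to 5 lists.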

How the data were processed

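Libraries were made from total RNA of 8 BUTE samples with a stranded mRNA kit, per the labels' protocols. The deposited values were taken as estimated counts for genes; the table's name gives length normalization, by a step not given in the sources used here. Tools named per the submitters' processing notes are bcl2fastq and Salmon 1.4.0, with build ARS-UCD1.2. Column names give the group but not the sample. Gene levels are not compared with each other, since transcript lengths were not used.

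Estimated counts were rounded, kept by filterByExpr (about 10 counts in 4 libraries), scaled by TMM and tested across 13557 genes with edgeR 4.0.16 (quasi-likelihood, robust, two-sided, group as the only term, R 4.3.3), with Benjamini-Hochberg adjustment and a threshold of 0.05. CPM values use the unrounded counts. Standard errors are the log2 fold change divided by the square root of F. The log2 CPM of profiles and spreads has a prior count of 2. The 95% intervals of log2 fold changes come from the fit, and the limit of 3 counts for a count of 0 covers counting error only. The test was also run on simulated data, and no result here rests on that run. Whether it covers a control group as uneven as this one, or spreads as large as those of CCL2 and CXCL8, is not shown.

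The members, lists and alternatives were chosen with earlier results of these data known. Named genes are the members, up to 4 genes of smallest p and every gene passing in each list, and up to 2 nearest profiles per member; not all are described. Alternatives were scaling by DESeq2's size factors or by library size only, testing without a filter or at a mean of 1 CPM and above, DESeq2 1.42.0, voom of limma 3.58.1, a term for DMSO R7 and R9, leaving out both or each library, and the column number as a block. Of the listed genes, CCL7, CCL13, IL17C, CSF3R and TLR1 were not matched, CXCL6 is a synonym of the row of CXCL5, and CXCL1 is the row GRO1. No 2 libraries of a group were alike within counting error: chi-square over its degrees of freedom ran from 14.2 to 129.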

Additional observations from a re-analysis of the deposited data

Results flagged for a closer look

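Among 18 groups of 4 values (9 genes in progesterone and in DMSO libraries), 1 held a library far from the other 3: CXCL10 was at 0.0378 CPM in progesterone R2, from 0.953 of an estimated count, and at 0 in progesterone R1, R3 and R6. With 3 libraries at 0, any count in the fourth takes up the whole range, and the value lies under the limit of 3 counts.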

How the results depend on the processing

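The count of genes passing over the whole table was 359 with all libraries, 1830.0 with DESeq2, 162 without DMSO R7 and R9, and 42 to 1782 when each library was left out. For the members other than ACKR4 it was 1, 2 with DESeq2, and 0 to 3 when each library was left out (0 without each progesterone library; 3 without DMSO R1, where CXCL12 is counted although it passed the filter through DMSO libraries alone). For the listed genes it was 6, 16 with DESeq2, and 2 to 21 when each library was left out. The cause was not tested. Column numbers R1 and R3 occur in both groups, and the deviations of same-numbered libraries correlated at 0.226 and 0.210 across genes, with 2 pairs too few to treat the numbers as pairs; with the column number as a replicate block, which leaves 1 residual degree of freedom, 2531 genes, 1 member and 27 listed genes passed. The sign turned for CCL2 and CXCL8 without DMSO R7 and R9 (1.00 and 1.02), with a term for these libraries (0.98 and 1.01) and with the replicate block (0.10 and 1.01), for IL1RN under the same settings (0.53, 0.52 and 0.27), and for CXCL9 with the block (0.069). The values of ACAD11 lay between -0.088 and 0.080 when each library was left out. For ACKR4 all alternatives lay between 2.57 and 3.85. At a mean of at least 1 CPM, CXCL8, CXCL12, CXCL9 and CCR7 were not tested. Depth limits CXCL10, IL6 and CXCL12, whose highest counts were 8.79, 11.8 and 20.4.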
